A study of Homo sapiens with 6 samples.

Results

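Among the best known targets of the transcription factor p53 are genes that hold p53 itself in check, genes through which it stops the cell cycle and genes of the stress response. The 9 genes described here were its regulators or targets MDM2, MDM4, PPM1D, CDKN1A, BTG2, CCNG1, SESN1, TP53INP1 and ZMAT3. They were selected by name with results of this same comparison known, from the rows of the expression table that carry their symbols. Their differences between the groups are therefore a description. Whether a gene passed a threshold is stated only to place it among all genes, and its p-value is not printed. The 9 genes stand among 27918 genes and loci in the table, each in a row of its own that no neighboring gene shares. All 9 were among the 16028 genes and loci whose mean reached 0.1 FPKM over the libraries. FPKM are fragments per kilobase of transcript, scaled to the mapped fragments of the library, so that levels of different genes can be compared per length.

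RNA was sequenced from HCT-116 cells, an established human colorectal carcinoma line. The control libraries came from cells transfected with 10 nM of a negative control GapmeR (GapNC, n = 3), and the others from cells that received 10 nM of a GapmeR against the long noncoding RNA CASC9 (GapC9, n = 3). GapmeRs are short antisense strands of DNA flanked by locked nucleotides, which direct RNase H to a complementary RNA. RNA was taken 24 h or 48 h after transfection, as accounts of the experiment differ, and was poly(A) selected in both groups. All 6 libraries are from this 1 line, and the labels do not say whether they came from separate cultures.

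In unstressed cells p53 is made and destroyed continuously. MDM2 is the ubiquitin ligase that marks it for destruction, MDM4 binds and silences its activation domain, and the phosphatase encoded by PPM1D removes activating phosphates from it and from its kinases. When p53 is stabilized it switches on MDM2 and PPM1D, which closes a feedback loop, and also CDKN1A, whose product p21 inhibits the cyclin-dependent kinases. HCT-116 cells are known to retain wild-type p53 and are much used to study this response.

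For the targeted RNA, CASC9, the table gives 0, 0.0108 and 0 FPKM in GapNC replicates 1, 2 and 3 and 0.0528, 0.107 and 0 FPKM in GapC9 replicates 1, 2 and 3. CASC9 was thus at or near 0 in all 6 libraries and was not lower in those labelled GapC9 (two-sided exact permutation test, p = 0.4, where 3 against 3 libraries cannot give less than 0.1), and its level could not be used to check the labels. Read from the steps between low values, the libraries held about 22.7 to 24.4 M fragments (M, mega), so that depth differed little between them. Epithelial markers summed to 1047 to 1437 FPKM in the GapNC libraries and 1026 to 1287 in the GapC9 libraries, fibroblast markers to at most 5.68, leukocyte markers to at most 0.255 and endothelial markers to at most 0.0827, although the epithelial marker VIL1 lay below the filter. In GapNC replicate 1 the deviation of a gene from its mean rose with GC content (Spearman's rho 0.618 across 10117 genes), against −0.384 to 0.0216 in the other libraries. As these are bulk samples, fewer cells with a transcript and less of it per cell cannot be told apart.

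The promoter windows are shown first because the 9 genes are read here as targets of 1 transcription factor. RefSeq windows on GRCh38.p14, from 250 bases before to 50 after a listed start, were found for 8 of the 9 genes, all but TP53INP1. They were searched for the consensus p53 response element, 20 letters without a spacer between its half-sites, with at most 3 mismatches and the CNNG core of each half-site kept. The element reads alike on both strands. A match was present in 392 of 35116 windows of all genes (1.12%) and in 3 of the 15 windows of these genes, which belong to MDM2 and SESN1. As these genes were picked by name as p53 regulators or targets, nothing is read from their count against that share. Capitals mark the match in the stretches printed here, both 5′ to 3′ on the strand of the gene.
MDM2, chr12:68808867-68809001, plus strand: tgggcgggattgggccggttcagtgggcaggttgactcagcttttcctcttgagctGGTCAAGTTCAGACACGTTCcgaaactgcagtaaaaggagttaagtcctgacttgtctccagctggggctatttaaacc
SESN1, chr6:109008989-109009088, minus strand: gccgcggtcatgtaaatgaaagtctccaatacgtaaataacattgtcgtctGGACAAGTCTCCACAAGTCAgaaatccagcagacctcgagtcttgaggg
The MDM2 match, with 2 mismatches, lay 75 bases before a listed start at 68809017, inside the gene and outside its annotated exons, and MDM2 is known for an internal promoter that p53 uses. The SESN1 match, with 3 mismatches, lay 30 bases before a listed start at 109008988, also inside the gene and outside exons. Such a match describes the letters of a window and is not a binding measurement, and the windows of the other 6 genes say nothing about sites elsewhere in them. Elements that break the search rules are not marked, so the lower case letters may still hold one.

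Of the 9 genes, 8 had a fitted difference above 0 in GapC9 and 1, MDM4, had one below 0. The median log2 difference of the 9 was 0.74, beside −0.076 for all genes tested. PPM1D, CDKN1A, SESN1 and TP53INP1 passed an adjusted p of 0.05 in limma, all 4 higher in GapC9, where 1.89% of all genes tested were called higher and 5.1% lower. No gene of the 9 was called lower, and 6 of them were higher and 0 lower by an unadjusted p of less than 0.05, as were 9.09% and 16.8% of all genes tested. In 7 of the 9, every GapC9 library lay above every GapNC library, and in 2 the groups overlapped, whereas 12.6% of all genes tested lay higher without overlap and 21.6% lower. Because the genes were chosen with these values known, nothing is read from their counts against these shares. Without GapNC replicate 1, PPM1D, CDKN1A and TP53INP1 were called and SESN1 was not, and without any other single library 0 of the 9 were called, with 5 or 6 of the 9 then below 0.05 before adjustment.

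**Figure D1:**
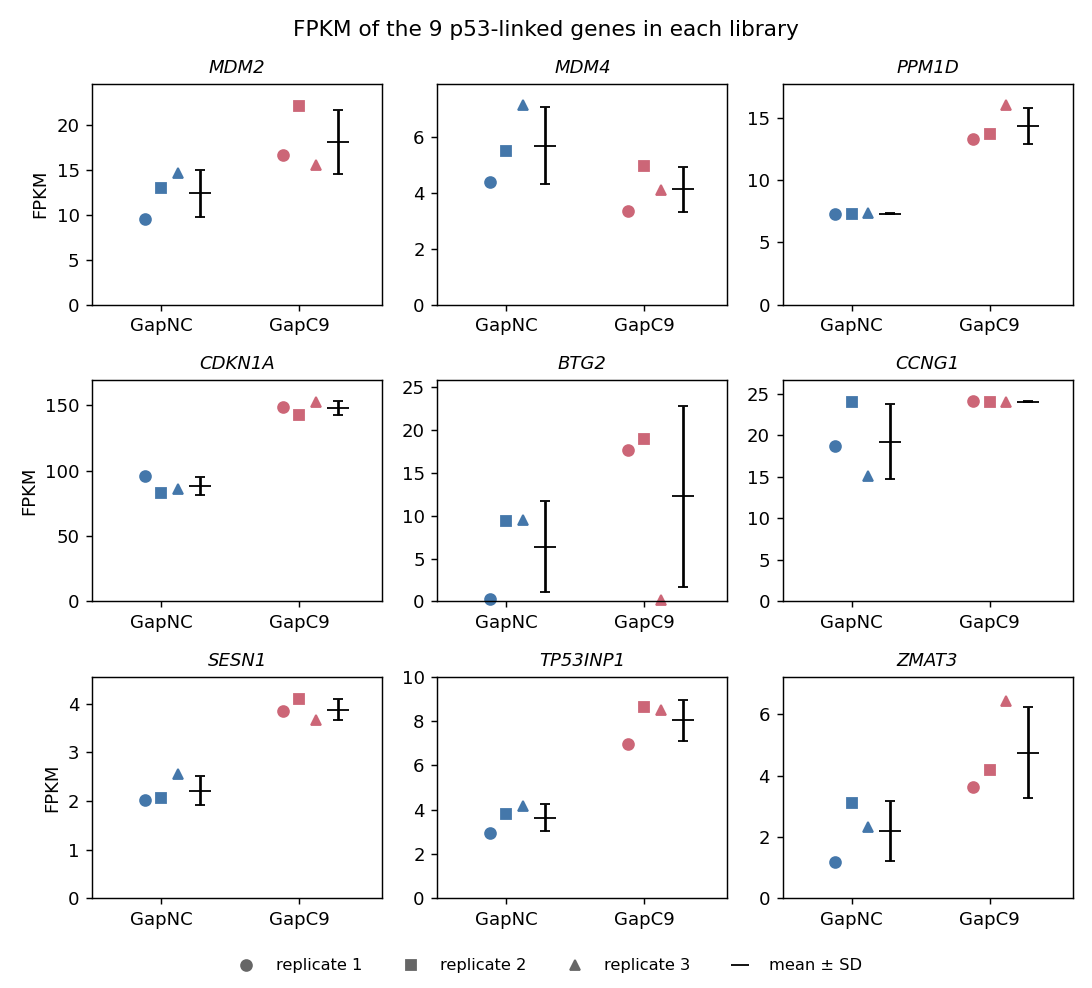
FPKM of each of the 9 genes in the 3 GapNC and 3 GapC9 libraries, with the mean and SD of each group beside the points; each panel has its own linear axis from 0. PPM1D, CDKN1A, SESN1 and TP53INP1 show tight groups that do not overlap, whereas BTG2 is near 0 in 1 library of each group.

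MDM2 (ENSG00000135679, chromosome 12, 68808176 to 68850686, plus strand, GRCh38 in GENCODE 29, as for all positions of genes here) was at 9.522, 12.999 and 14.649 FPKM in the GapNC libraries and at 16.658, 22.089 and 15.475 FPKM in the GapC9 libraries. The highest control, replicate 3, lay just under the lowest GapC9 library, which was also replicate 3, so the groups did not overlap, but the gap was small beside the spread within them. The means were 12.4 ± 2.62 and 18.1 ± 3.53 FPKM (SD, n = 3 each), the log2 difference was 0.55 (SE 0.21), and MDM2 did not pass the adjusted threshold. The end of MDM2 overlaps CPM on the opposite strand by 8490 bases, and CPM was at 0.201 to 0.799 FPKM in the 6 libraries. AC025423.1, on the same strand, overlaps MDM2 by 436 bases and was at 0.0526 to 0.899 FPKM. Whether reads of these genes entered the values of MDM2 was not tested.

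MDM4 (ENSG00000198625, chromosome 1, 204516379 to 204558120, plus strand), the relative of MDM2 that lacks ligase activity of its own, went the other way in the fit. Its level was 4.40, 5.51 and 7.12 FPKM in GapNC and 3.34, 4.95 and 4.10 FPKM in GapC9. GapC9 replicate 2 stood above GapNC replicate 1, so the groups overlapped. The log2 difference of −0.44 (SE 0.23) did not pass the threshold, with means of 5.68 ± 1.37 and 4.13 ± 0.808 FPKM.

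PPM1D (ENSG00000170836, chromosome 17, 60600183 to 60666280, plus strand), which encodes the phosphatase WIP1, had the narrowest control group of the 9. It was at 7.29, 7.30 and 7.33 FPKM in the GapNC libraries and at 13.32, 13.68 and 15.98 FPKM in the GapC9 libraries. Every GapC9 value was far above every control value, and the spread lay almost wholly in the GapC9 group. The means were 7.30 ± 0.0198 and 14.3 ± 1.44 FPKM, a ratio of 1.96, and the log2 difference of 0.96 (SE 0.11) passed the adjusted threshold.

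Within a library, the levels of MDM2 and PPM1D relative to MDM4 differed between the groups without overlap. These ratios were formed after the values had been seen. MDM2 stood at 2.17, 2.36 and 2.06 times the level of MDM4 in the GapNC libraries and at 4.99, 4.46 and 3.78 times in the GapC9 libraries. The mean ratio was 2.19 ± 0.154 in GapNC and 4.41 ± 0.608 in GapC9, and the lowest GapC9 ratio exceeded the highest control. PPM1D stood at 1.66, 1.33 and 1.03 times MDM4 in GapNC and at 3.99, 2.76 and 3.90 times in GapC9, and here too the ranges were apart. MDM4 is shared by these ratios, so they are not separate measurements of the same thing.

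**Figure D2:**
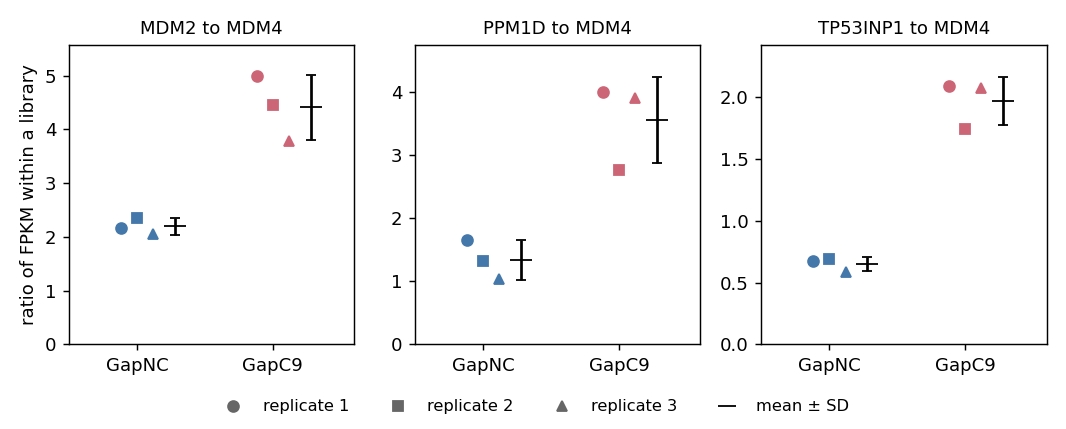
Ratio of the FPKM of MDM2, PPM1D and TP53INP1 to that of MDM4 within each library, with the mean and SD of each group (n = 3). In all 3 panels the 3 GapC9 ratios lie above the 3 GapNC ratios, for MDM2 at 3.78 to 4.99 against 2.06 to 2.36.

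CDKN1A (ENSG00000124762, chromosome 6, 36676460 to 36687339, plus strand) was the most abundant of the 9 in every library. The gene was at 96.2, 83.1 and 86.0 FPKM in GapNC replicates 1, 2 and 3, and at 149, 142 and 152 FPKM in GapC9 replicates 1, 2 and 3. Both groups were tight and the lowest GapC9 library stood well above the highest control. The means were 88.4 ± 6.87 and 148 ± 5.07 FPKM, a ratio of 1.67, and the log2 difference of 0.74 (SE 0.09) passed the adjusted threshold. Already in the control libraries CDKN1A exceeded 98.4% to 98.6% of the genes tested, and in the GapC9 libraries 99.2% to 99.3%. At 58.1% GC it was the most GC-rich of the 9, and with the GC trend of each library removed its log2 difference was 0.98. The noncoding gene DINOL overlaps CDKN1A by 951 bases on the opposite strand and has no row. Whether its reads entered the values of CDKN1A was not tested.

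CCNG1 (ENSG00000113328, chromosome 5, 163437569 to 163446151, plus strand) encodes cyclin G1, which brings a phosphatase to MDM2. It was at 18.7, 23.9 and 15.0 FPKM in GapNC and at 24.16, 23.95 and 24.04 FPKM in GapC9. The groups were barely separate, since GapNC replicate 2 at 23.949 FPKM lay next to GapC9 replicate 2 at 23.953 FPKM. The GapC9 libraries were nearly identical, with a mean of 24.05 ± 0.104 FPKM, while the controls spread over 19.2 ± 4.48 FPKM. The log2 difference of 0.35 (SE 0.18) did not pass the adjusted threshold.

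BTG2 (ENSG00000159388, chromosome 1, 203305491 to 203309602, plus strand) encodes an antiproliferative protein that binds the machinery removing poly(A) tails. Its values were 0.245, 9.42 and 9.45 FPKM in GapNC and 17.7, 18.9 and 0.145 FPKM in GapC9. Within each group 1 library was nearly empty, replicate 1 in GapNC and replicate 3 in GapC9, and the other 2 lay close together, higher in GapC9. Taking a transcript length of 2712 bases, the FPKM correspond to about 15, 597 and 625 fragments in GapNC and 1103, 1243 and 9 in GapC9. The log2 difference over all 6 libraries was 0.47, far smaller than its SE of 2.14. It turned to −1.13 without GapNC replicate 1, to −0.55 without GapC9 replicate 1 and to −0.60 without GapC9 replicate 2, and was 2.54 without GapC9 replicate 3. Without both nearly empty libraries, a choice made after the values were seen, it was 0.95.

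Such gaps were not particular to BTG2. Of the 10229 genes that averaged 1 FPKM or more, 364 (3.56%) had a library more than 10 times below the highest in its group, and in 24 of them it was the same pair of libraries as for BTG2. BTG2 was the only 1 of the 9 genes among them, beside 5 loci of the other p53 targets and 4 of the remaining lists described below. GapNC replicate 1 was also the lowest control for 6 of the other 8 genes, though by far less, whereas GapC9 replicate 3 was the lowest of its group for 2 of them. What lowered BTG2 in these libraries was not tested.

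SESN1 (ENSG00000080546, chromosome 6, 108986437 to 109094819, minus strand) encodes sestrin 1, which restrains mTORC1 when amino acids or redox balance fail. It was at 2.02, 2.06 and 2.56 FPKM in GapNC and at 3.86, 4.11 and 3.67 FPKM in GapC9. The groups were clearly apart, with less spread in either than the distance between them. The means were 2.21 ± 0.301 and 3.88 ± 0.217 FPKM, a ratio of 1.75, and the log2 difference of 0.79 (SE 0.13) passed the adjusted threshold, but not when the filter on low genes was dropped. Its printed promoter window starts within the gene, and FPKM per gene do not tell from which start the transcripts came.

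TP53INP1 (ENSG00000164938, chromosome 8, 94925972 to 94949411, minus strand) encodes a nuclear protein that acts with p53 in cell death and with autophagy proteins. The level was 2.95, 3.79 and 4.16 FPKM in GapNC and 6.98, 8.63 and 8.51 FPKM in GapC9. No GapC9 library came near the control range, and replicate 1 was the lowest of its group in both. The means were 3.63 ± 0.618 and 8.04 ± 0.919 FPKM, a ratio of 2.21, with a log2 difference of 1.13 (SE 0.17) that passed the adjusted threshold. NDUFAF6, on the opposite strand, covers 23440 bases of the same interval, and was at 1.53 to 2.06 FPKM in GapNC and 1.59 to 1.81 FPKM in GapC9, and whether its reads entered the values of TP53INP1 was not tested. Of the annotated genes that overlap the others on the opposite strand and have a row, those of MDM4 and SESN1 were at no more than 0.104 FPKM. Relative to MDM4 in the same library, TP53INP1 stood at 0.672, 0.688 and 0.583 in GapNC and at 2.09, 1.74 and 2.08 in GapC9, so that MDM4 was the higher of the pair in every GapNC library and TP53INP1 in every GapC9 library.

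ZMAT3 (ENSG00000172667, chromosome 3, 179017223 to 179072279, minus strand) encodes a zinc finger protein that binds RNA and affects splicing. It was at 1.17, 3.10 and 2.32 FPKM in GapNC and at 3.63, 4.18 and 6.42 FPKM in GapC9. Here too the groups did not overlap, but both were wide, with GapNC replicate 1 the lowest and GapC9 replicate 3 the highest. The means were 2.19 ± 0.971 and 4.75 ± 1.48 FPKM, a ratio of 2.16, and the log2 difference of 1.14 (SE 0.39) did not pass the adjusted threshold. That difference was 0.76 without GapNC replicate 1 and 0.52 without both that library and GapC9 replicate 3. With the GC trend removed it was 1.07.

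The fold limit of the study was also applied, with GapC9 means at 2 or more, or 0.5 or less, times those of GapNC, together with a limma p under 0.05 before adjustment. By these thresholds TP53INP1 and ZMAT3 were higher in GapC9 and no gene of the 9 was lower, and the shares of all genes tested were 2.1% higher and 4.32% lower. PPM1D, at a ratio of 1.96, lay just under the fold limit, and CDKN1A and SESN1 also stayed below it. The count of 2 became 1 without GapNC replicate 1 and 1 without GapC9 replicate 3.

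**Figure D3:**
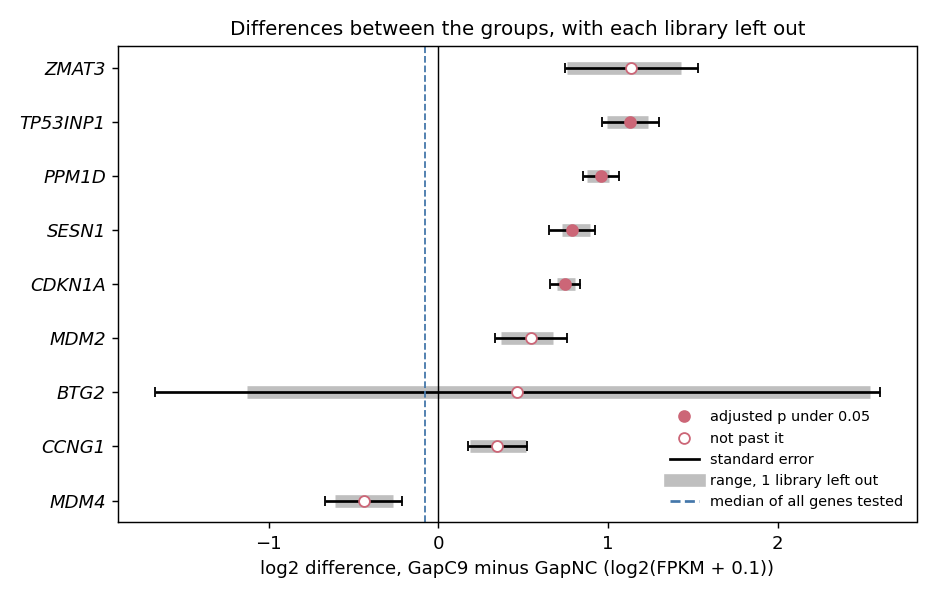
Fitted log2 difference of each of the 9 genes, GapC9 minus GapNC on log2(FPKM + 0.1), with its standard error and the range over the fits that leave out 1 library. Filled points passed an adjusted p of 0.05; BTG2 ranges from −1.13 to 2.54, and MDM4 is the only gene with a fitted value below 0.

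By mean level, the first 5 of the 9 stood in the same order in both groups and the last 4 did not. In GapNC it ran CDKN1A, CCNG1, MDM2, PPM1D, BTG2, MDM4, TP53INP1, SESN1 and ZMAT3 by mean FPKM. Of neighbors in that order, the libraries of PPM1D and BTG2, of BTG2 and MDM4 and of SESN1 and ZMAT3 overlapped. In GapC9 it ran CDKN1A, CCNG1, MDM2, PPM1D, BTG2, TP53INP1, ZMAT3, MDM4 and SESN1. There, overlaps of neighbors joined MDM2 with PPM1D, PPM1D with BTG2, BTG2 with TP53INP1, ZMAT3 with MDM4 and MDM4 with SESN1. Overlaps of genes further apart are not listed, and BTG2, with its nearly empty libraries, also overlapped genes further down. CDKN1A and CCNG1 were first and second in every library. BTG2 ranked 9, 4 and 4 in the GapNC libraries and 3, 4 and 9 in the GapC9 libraries. Its place by mean includes its nearly empty libraries and was its rank in no single library. MDM4 ranked 5, 6 and 6 among the 9 in the GapNC libraries and 9, 7 and 7 in the GapC9 libraries.

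The level pattern of CDKN1A over the 6 libraries was most like that of POLR2A, which encodes the large subunit of RNA polymerase II, with a root mean square difference of 0.0467 between their centered log2 values, among the 10229 genes that averaged 1 FPKM or more. APPL2, an endosomal adaptor gene, followed at 0.0516 and the joined locus AC008443.1;TRIM52-AS1 at 0.0566. For MDM2 the nearest were the pseudogene AMZ2P1 at 0.0403, PTAR1 at 0.079 and the iron-sensing ubiquitin ligase gene FBXL5 at 0.0844. AMZ2P1 was at 1.29, 1.83 and 1.99 FPKM in GapNC and at 2.45, 2.99 and 2.16 FPKM in GapC9, and so shared with MDM2 the low first control and the high GapC9 replicate 2. These likenesses rest on 6 libraries and on the group difference itself.

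Beyond the 9 genes, 38 other widely accepted p53 targets gave 35 loci that passed the filter, TIGAR on 2 of them. Of these, 3 rose in GapC9 and 1 fell at an adjusted p of 0.05, and 14 lay higher and 5 lower without overlap. The shares of all genes tested were 1.89% and 5.1% called and 12.6% and 21.6% without overlap, and the median log2 difference was 0.29 for the list. Of its loci, 5 had a library more than 10 times below the highest in its group. This list and those below were also chosen with earlier results of these data known. Their counts and p-values are therefore a description and no independent test. BTG1, the nearest relative of BTG2, rose from 2.04 ± 0.0649 to 4.20 ± 0.458 FPKM, a log2 difference of 0.9996 (SE 0.12, limma adjusted p = 0.0182). PLK2, a kinase of the centrosome cycle, rose by 0.57 (adjusted p = 0.0261 in limma). The locus that joins PGPEP1 and the stress cytokine GDF15 rose by 0.79 (limma adjusted p = 0.0477), and the locus that joins the carboxylesterase genes CES2 and CES3 fell by 0.61 (limma adjusted p = 0.0467), and neither can be assigned to 1 gene. Each of these 4 calls was lost when one or another library was left out, and the list then held 0 to 3 calls.

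Of 20 ligases, deubiquitinases, acetylation enzymes and MDM2-binding proteins that act on p53 or MDM2, 0 rose in limma and 1 fell, with 4 higher and 4 lower at an unadjusted p under 0.05, where all genes tested gave 9.09% and 16.8%. The median of 0.033 had no stable sign, at −0.082 without GapNC replicate 3, −0.037 without GapC9 replicate 1 and 0.18 under median scaling. The gene that fell was HUWE1, a ubiquitin ligase known to act on p53, from 40.1 ± 3.18 to 20.97 ± 1.295 FPKM (log2 difference −0.93, limma adjusted p = 0.0164), and the list held 1 call without GapNC replicate 1 and 0 without any other library. The next largest differences did not pass, at 0.60 for the deacetylase gene SIRT1, −0.38 for TRIM24 and 0.34 for CDKN2A, which encodes the MDM2 inhibitor ARF. Of 11 kinases of the pathway, 1 fell and 0 rose, with 1 higher and 3 lower at an unadjusted p under 0.05 (9.09% and 16.8% of all genes tested), and the median was −0.13. The kinase that fell was HIPK2, which phosphorylates p53, from 7.92 ± 0.396 to 3.46 ± 0.895 FPKM (log2 difference −1.20, limma adjusted p = 0.0314), and no kinase was called with any 1 library left out or without the filter. DYRK2 at −0.78, CDK5 at −0.32 and the locus that joins CHEK1 with STT3A at 0.46 did not pass. That joined locus was the 1 counted higher before adjustment, and it cannot be assigned to 1 gene. DYRK2 was at 0.512 FPKM in GapC9 replicate 2 against at least 4.50 in every other library.

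The 11 genes for cyclins, their kinases and PCNA, whose products p21 binds, gave 1 fall and 0 rises in limma, with a median of −0.18. At an unadjusted p under 0.05, 3 were lower and 1 higher (16.8% and 9.09% of all genes tested). Whether their RNA levels depend on CDKN1A was not tested. CDK2, a kinase that p21 inhibits, fell by 0.63 on the log2 scale, from 31.3 ± 4.12 to 20.2 ± 1.26 FPKM (limma adjusted p = 0.0421). No gene of this list was called in 13 of 17 alternatives, among them each library left out, no filter, median scaling, quantile normalization, the GC correction and limma without its trend. CDK6 at −1.10, CCND3 at −0.84 and CCNA2 at 0.66 did not pass. CDK6 was at 2.95 FPKM in GapC9 replicate 2 against at least 10.1 in every other library. CCND3 was at 12.9 FPKM in GapNC replicate 1 against at most 4.63 in every other library. CCNA2 was at 35.2 FPKM in GapC9 replicate 3, near the highest control at 34.4. Among 22 cell cycle genes known to be repressed through p21 and the DREAM complex, 1 fell and 0 rose, and the median was −0.17. Without overlap 8 lay lower and 1 higher (21.6% and 12.6% of all genes tested), and 4 were lower and 0 higher by an unadjusted p of less than 0.05 (16.8% and 9.09%). CDC25A, the phosphatase that activates CDK2, fell from 15.0 ± 0.571 to 8.75 ± 0.0951 FPKM (log2 difference −0.77, limma adjusted p = 0.0166), and the list held 1 call without GapNC replicate 1 and 0 without any other library. MYBL2 at −0.65, AURKB at −0.53 and MCM5 at −0.51 did not pass. Under median scaling, which moved the median of all genes from −0.076 to 0.057, the medians of these 2 lists were −0.034 and −0.022 and that of the kinases changed sign to 0.016.

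Of the family relatives of the 9 genes, 16 loci passed the filter, of which 2 rose and 0 fell in limma, with 3 higher and 0 lower at an unadjusted p under 0.05 (9.09% and 16.8% of all genes tested). The list held 2 calls without GapNC replicate 1 and 0 without any other library. TP53INP2, the autophagy relative of TP53INP1, rose from 2.79 ± 0.329 to 5.76 ± 0.231 FPKM (log2 difference 1.03, limma adjusted p = 0.0182), close to the 1.13 of TP53INP1. The other was BTG1, given above. SESN2, the stress-induced relative of SESN1, differed by 0.56 without overlap of the groups and did not pass (limma adjusted p = 0.107). TOB1, of the same family as BTG2, was like BTG2 low in 1 library of each group, at 3.16 FPKM in GapNC replicate 2 and 4.70 FPKM in GapC9 replicate 1, against at least 23.8 FPKM in the other 4.

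**Figure D4:**
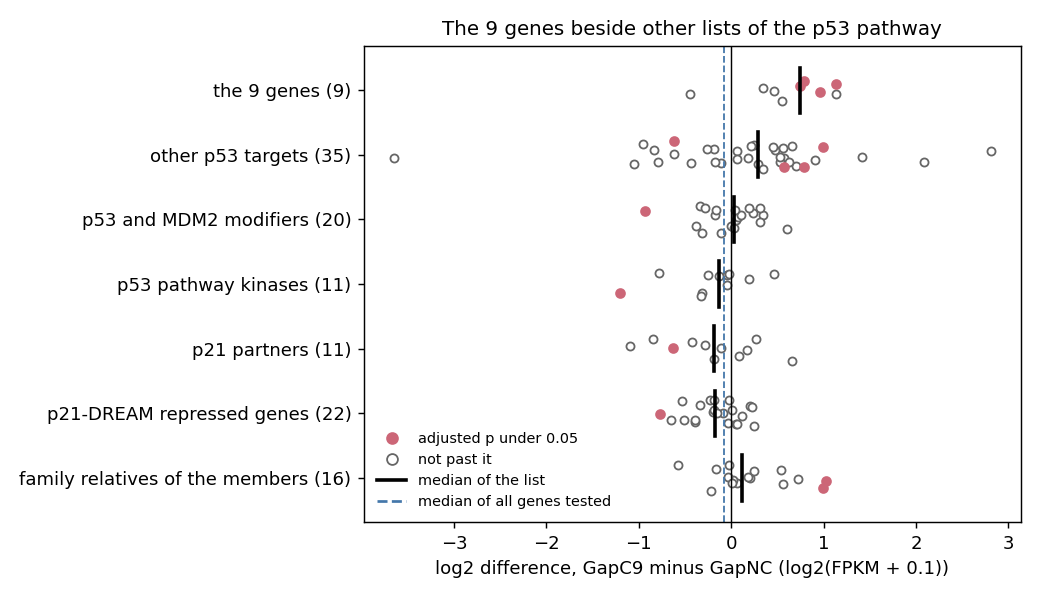
Fitted log2 difference, GapC9 minus GapNC, of the 9 genes and of the loci of 6 other lists that passed the filter (number in brackets), with the median of each list and of all genes tested. The median was 0.74 for the 9 genes, which were chosen with these values known, and lay between −0.18 and 0.29 for the other lists. Those lists were chosen with earlier results of these data known.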

How the data were processed

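Poly(A) RNA of 3 GapNC and 3 GapC9 libraries of HCT-116 cells was sequenced in read pairs. The submitters' processing notes name HISAT2 2.0, StringTie 1.3.0 and Bowtie 0.12.2. The authors aligned reads, assembled transcripts and deposited FPKM values per gene and locus, without counts; their edgeR calls were therefore not rerun. The annotation, the genome build of the alignment and the use of read strand are not given in the sources used here, so opposite-strand genes cannot be told apart. Assembly can join neighbors or miss a gene in 1 library. Loci that join a listed gene with a neighbor were counted in the lists. The columns were assigned by name and 0 value columns were left out.

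In R 4.3.3, limma 3.58.1 (lmFit, eBayes with trend) was fitted to log2(FPKM + 0.1) of genes averaging 0.1 FPKM or more over all 6 libraries, with Benjamini-Hochberg adjustment over the 16028 tested. This scale understates changes of low genes. The p-values measure the spread between libraries, which may be technical. Fragment numbers were inferred from the commonest FPKM step of single-transcript loci, so they are approximate. Gene positions came from GENCODE 29, and the promoter windows from RefSeq, GRCh38.p14. Python 3.11.15 was used for tables and figures. The method was tested on simulated data. The 9 genes and all lists were chosen with earlier results of these data known. In each other list, genes past an adjusted p of 0.05 were named, and the largest differences among genes averaging 1 FPKM or more until 4 were named; for CDKN1A and MDM2, the 3 genes most alike in pattern. The single-library values of TOB1, DYRK2, CDK6, CCND3 and CCNA2 were singled out after they were seen. The alternatives are given in the closing section.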

Additional observations from a re-analysis of the deposited data

How the results depend on the processing

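Apart from BTG2, each of the 9 genes kept the sign of its log2 difference in all 17 alternatives. PPM1D, CDKN1A and TP53INP1 passed the adjusted threshold in 10 of the 17 and SESN1 in 8. BTG2 ranged from −1.13 to 2.54 with 1 library left out, reversed without GapNC replicate 1 (−1.13) and without GapC9 replicate 1 (−0.55) or 2 (−0.60). Pseudocounts of 1 and 0.01, a filter at 1 FPKM, limma without its trend, a GC correction, quantile normalization, median scaling and leaving out genes with a 0 each left 4 of the 9 called, and no filter 3.

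With 1 library left out, the 9 genes gave 0 to 3 calls at the adjusted threshold (5 or 6 at an unadjusted p under 0.05) and 1 to 3 at the study's thresholds. Other p53 targets then gave 0 to 3 calls, modifiers 0 to 1, kinases 0, p21 partners 0, p21-DREAM genes 0 to 1 and family relatives 0 to 2, and all genes 16 to 241 higher and 17 to 573 lower, with 3066 to 4007 at an unadjusted p under 0.05. Without both GapNC replicate 1 and GapC9 replicate 3, chosen after the values were seen, 0 of the 9 genes were called by either rule (5 at an unadjusted p under 0.05). At the adjusted threshold, 0 genes of every other list were called, and 5 genes were higher and 11 lower in all. Fewer libraries entered these fits.

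The calls of the lists and of all genes also moved with the scaling, and the cause was not tested. Median scaling moved the median of all genes from −0.076 to 0.057 and gave 7 calls of other p53 targets, 2 of modifiers, 2 of kinases, 0 of p21 partners and 426 genes lower. The lower share of all calls was 72.9% as reported, 48.5% under median scaling, 59.8% under quantile normalization and 52.96% after the GC correction. Quantile normalization gave 516 genes lower, 2 p21-DREAM calls and 0 p21 partners. The GC correction gave 1103 genes higher and 1242 lower, 12 other p53 targets, 5 modifiers, 2 kinases, 0 p21 partners and 3 p21-DREAM genes. No filter gave 146 higher and 346 lower, 2 other targets, 0 kinases and 0 partners, a filter at 1 FPKM 2 kinases, and limma without its trend 2 other targets and 0 partners.

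With the replicate number as a block (replicate block), limma called 0 of the 9 genes, 0 of every other list and 0 genes in all, with 6 of the 9 and 4570 genes at an unadjusted p under 0.05. The numbers are not stated to pair the samples, and deviations of same-numbered libraries correlated at 0.113, 0.0362 and 0.0332 across genes; GapNC replicate 3 correlated better with GapC9 replicate 2 (0.0867). The depth, 22.7 to 24.4 M fragments, leaves genes near 0.1 FPKM resting on few fragments.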
